A study of Mus musculus with 12 samples.

Results

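The genes described here are 9 genes of megakaryocytes and of the platelets they shed: Pf4, Ppbp, Vwf, Mmrn1, Itga2b, Itgb3, Gp9, Clec1b and Treml1. They were chosen by gene symbol, with earlier results of these data known. Each has 1 probe set, and they are 9 of the 19938 genes that could be named on the array. Expression was measured on 12 arrays of total RNA from cultured mouse bone marrow cells, in 4 groups of 3 arrays. All mice carried CreER, a Cre recombinase that tamoxifen switches on, and all received tamoxifen by gavage at 5 mg a day for 3 days. The wt groups came from mice labelled Zfx wt/y CreER and the ko groups from mice labelled Zfx fl/y CreER. Zfx is an X-linked zinc finger transcription factor, and fl marks a gene copy flanked by sites that Cre cuts. For both genotypes, c-Kit+ progenitors received either a retrovirus with Myc and GFP or a GFP control retrovirus. After 48 hours GFP+ cells were sorted and cultured for 4 more days; the medium held 10 ng/mL each of SCF, IL-3 and IL-6. The labels give neither the promoter that drives CreER nor the age of the mice, and they do not say whether arrays of equal number share an animal, a culture or a day.

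Megakaryocytes are the large bone marrow cells that shed platelets. They pack chemokines and adhesive proteins into alpha granules, and they place receptors for collagen, fibrinogen, von Willebrand factor and podoplanin on their surface. Their genes are controlled largely by GATA and ETS family transcription factors. Several of these genes are also used outside the lineage: Vwf and Mmrn1 by endothelial cells, Itgb3 by endothelial and mast cells, and Itga2b by early progenitors. The arrays hold RNA of whole cultures, in which fewer cells of a type and less RNA per cell cannot be told apart.

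The Zfx probe set was not lower on the arrays labelled ko, at a mean intensity of 1020.5 ± 64.9 (SD, n = 3) against 946 ± 72.9 with the GFP virus, so ko and wt below are the names on the labels. The table does not give the part of the transcript that the probes cover. The Myc probe set rose with the Myc virus, 1.74-fold in wt (adjusted p = 7.24e-04) and 1.87-fold in ko (adjusted p = 3.42e-04). As a gauge of background, the 95th percentile of 1035 olfactory receptor probe sets lay between 75.5 and 92 on the 12 arrays. Pf4, Ppbp, Vwf, Itga2b, Itgb3, Gp9 and Treml1 were above that level on 12 of 12 arrays, Mmrn1 on 9 and Clec1b on 5. Of 16 neutrophil markers, which myeloid cultures should hold, 15 were above it on all 12 arrays.

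The promoters of 7 of the 9 genes were found in the RefSeq table of build GRCm38.p6. The 250 bases before the start of 5 of them are shown. Pf4 and Ppbp are shown because they are neighbours on chromosome 5 whose Myc differences are given side by side below, Mmrn1 and Clec1b because they fell with Myc in ko, and Treml1 because its stretch holds an E-box. Capitals mark a match to a GATA motif (which reads AGATAA or else AGATAG, or with another first letter TGATAA or else TGATAG), an ETS motif (which reads AGGAAG or else CGGAAG), the E-box CACGTG that Myc and Max bind, or AGGCCT, the core of the ZFX motif, on either strand.
Pf4: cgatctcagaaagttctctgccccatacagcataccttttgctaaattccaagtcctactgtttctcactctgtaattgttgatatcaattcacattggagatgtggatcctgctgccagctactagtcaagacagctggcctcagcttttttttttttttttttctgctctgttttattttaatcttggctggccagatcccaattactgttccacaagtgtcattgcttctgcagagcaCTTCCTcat
Ppbp: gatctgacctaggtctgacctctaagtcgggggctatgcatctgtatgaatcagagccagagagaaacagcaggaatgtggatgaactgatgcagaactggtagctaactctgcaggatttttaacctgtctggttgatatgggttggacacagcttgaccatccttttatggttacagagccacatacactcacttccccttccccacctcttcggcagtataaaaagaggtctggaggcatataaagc
Mmrn1: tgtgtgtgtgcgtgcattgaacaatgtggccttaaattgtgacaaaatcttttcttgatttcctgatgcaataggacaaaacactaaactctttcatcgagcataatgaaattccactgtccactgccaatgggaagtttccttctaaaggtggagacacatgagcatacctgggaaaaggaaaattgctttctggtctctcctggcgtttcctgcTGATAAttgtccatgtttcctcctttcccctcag
Clec1b: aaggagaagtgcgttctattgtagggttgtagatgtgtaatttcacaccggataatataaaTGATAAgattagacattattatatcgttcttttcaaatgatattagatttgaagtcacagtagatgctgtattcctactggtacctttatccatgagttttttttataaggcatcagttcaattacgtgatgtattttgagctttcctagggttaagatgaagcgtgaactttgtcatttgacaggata
Treml1: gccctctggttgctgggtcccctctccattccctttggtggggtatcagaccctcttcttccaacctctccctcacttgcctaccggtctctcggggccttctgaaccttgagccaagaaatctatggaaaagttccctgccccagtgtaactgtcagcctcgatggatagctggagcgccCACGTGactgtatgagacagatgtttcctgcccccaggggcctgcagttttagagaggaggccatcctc
In build GRCm38.p6 these stretches lie on the plus strand at chr5:90772185-90772434 (Pf4), chr5:90768268-90768517 (Ppbp), chr6:60944067-60944316 (Mmrn1), chr6:129397047-129397296 (Clec1b) and chr17:48359666-48359915 (Treml1). A GATA match stood in 2 of the 7 promoters, Mmrn1 and Clec1b, against 26.5% of all 32851 promoters in the table. An ETS match stood in 3 of the 7, Pf4, Itga2b and Gp9, against 39.2% of all. The E-box was in 1, Treml1, against 6.02% of all, and AGGCCT was in 0 of the 7, against 8.7% of all. No match overlapped another, and a match is a run of letters and not a measured binding site.

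The ko arrays held more of these transcripts than the wt arrays. With the GFP virus, all 9 genes were higher on each of the 3 ko arrays than on any of the 3 wt arrays, which was so for 7.44% of all genes. The differences ran from 1.79-fold in Ppbp to 3.49-fold in Mmrn1, with a median log2 difference of 1.47 over the 9 genes and of -0.00 (rounded) over all genes tested. Clec1b and Treml1 were past adjusted p 0.05 in limma, 2 of 9 genes, where 1.17% of all genes were called higher. When replicate number entered the fit as a block, 8 of 9 were called higher, all but Ppbp, against 5.12% of all genes. The block is given because same-numbered arrays of different groups deviated together, and the block count was 8 without each of the 12 arrays in turn. Without the block, the count was 0 without GFP wt 1, 0 without GFP wt 3 and 0 without GFP ko 3. It was 1 without Myc wt 2, Myc ko 2, GFP ko 1 or GFP ko 2 and 4 without Myc ko 1, and 0 when all 35556 probe sets entered the adjustment.

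With the Myc virus, the ko arrays were again higher, and all 9 genes had a higher value in ko in 3 of 3 same-numbered pairs, which was so for 22.4% of all genes. The groups overlapped in every one of the 9 genes, with Myc ko 1 inside the range of the wt arrays each time; arrays without overlap, ko above wt, were found for 8.4% of all genes. Leaving out Clec1b and Mmrn1, which were not above background on some of these arrays, the differences ran from 1.61-fold in Treml1 to 2.93-fold in Pf4. Over all 9 genes as measured there was a median log2 difference of 1.31 against 0.00 (rounded) over all genes. Limma called 0 of 9 genes, where it called 1.74% of all genes higher. At an unadjusted p under 0.05 it took 6 of 9, where 6.75% of all genes were higher. With the block 7 of 9 were called higher, all but Ppbp and Clec1b, against 6.05% of all genes. Without Myc ko 1, limma called 3 of 9 without the block.

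**Figure D1:**
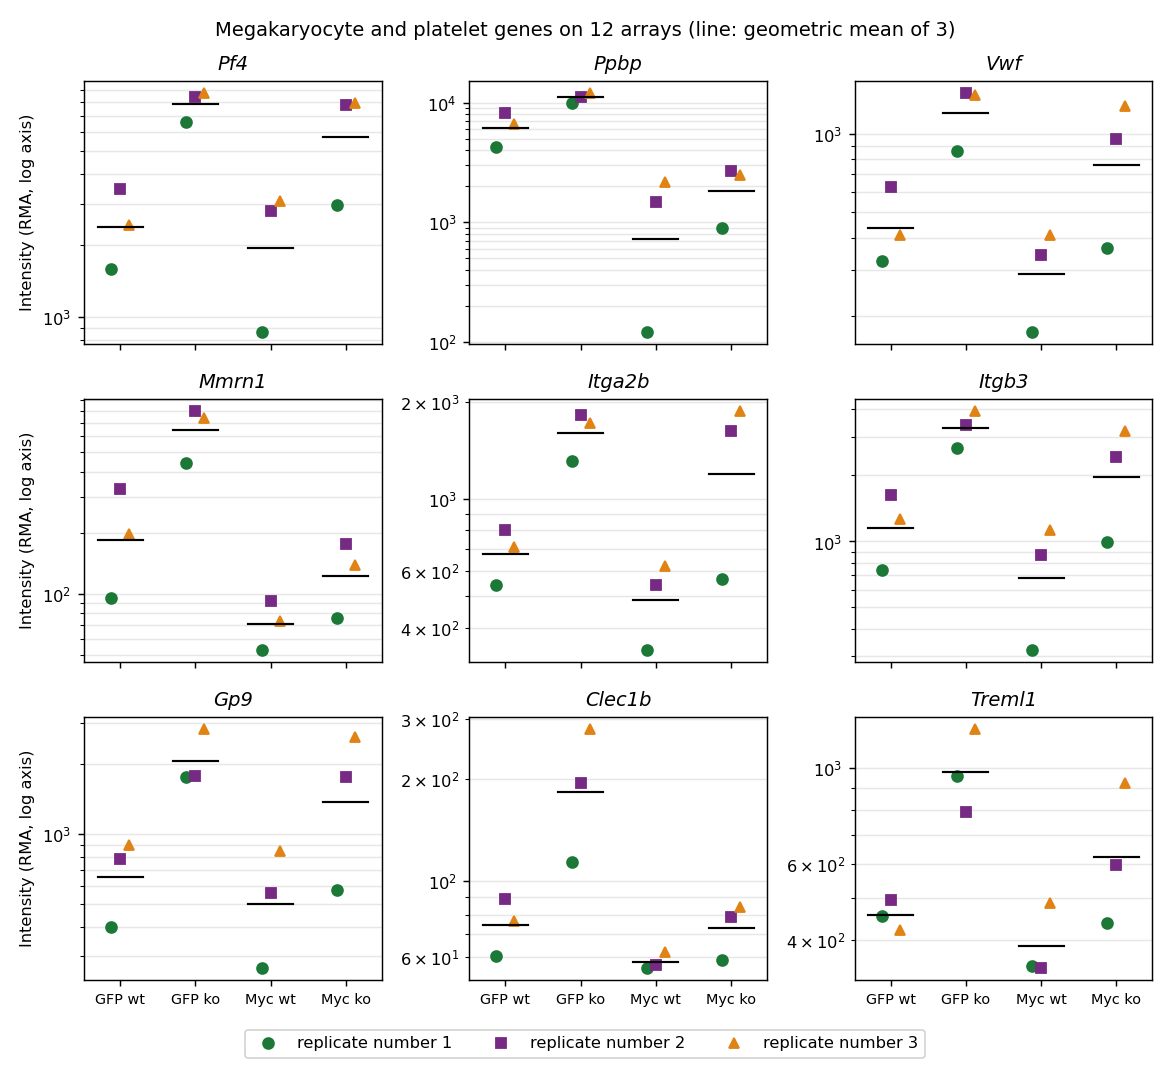
Intensity of each of the 9 genes on the 12 arrays, on a log axis, by group; symbols mark the replicate number and the line is the geometric mean of 3 arrays. With the GFP virus the 3 ko arrays lie above the 3 wt arrays in every panel, and in Ppbp and Mmrn1 the 3 Myc arrays lie below the 3 GFP arrays in both genotypes.

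Pf4 and Ppbp are the alpha granule chemokines among the 9. Pf4 encodes platelet factor 4, a CXC chemokine that binds heparin (probe set 10523134, chromosome 5, gene at 90772435 to 90773383). Its intensity was 1594, 3459 and 2443 on the GFP wt arrays numbered 1 to 3 and 6610.2, 8445 and 8771 on the GFP ko arrays. It was 862, 2785 and 3069 with Myc in wt and 2959, 7821 and 7982 with Myc in ko. Pf4 was thus lowest on the array numbered 1 in each group, and the 2 highest Myc ko arrays stood among the GFP ko arrays. The ko to wt difference was 3.31-fold with GFP (95% interval 1.5 to 7.32, adjusted p = 0.109; 0.00214 with the block) and 2.93-fold with Myc (1.32 to 6.47, adjusted p = 0.135; 0.00323 with the block).

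Ppbp encodes pro-platelet basic protein, the precursor of the neutrophil-attracting chemokine Cxcl7 (probe set 10523128, chromosome 5, 90768518 to 90770063). The end of its gene and the start of Pf4 are 2371 bases apart. Its intensity was 4279, 8188 and 6661 in GFP wt and 9985, 11223 and 12024 in GFP ko. With Myc it was 122, 1483 and 2190.0 in wt and 902, 2697 and 2473 in ko. Ppbp had the widest range of the 9 genes, 98.9-fold from Myc wt 1 to GFP ko 3, and no Myc array reached any GFP array of its genotype. Between genotypes Ppbp was 1.79-fold higher in ko with GFP (0.459 to 7.02, adjusted p = 0.83; 0.497 with the block) and 2.48-fold with Myc (0.634 to 9.69, adjusted p = 0.617; 0.23 with the block). These intervals are wide, and neither difference passed the threshold in either fit.

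Vwf and Mmrn1 code for adhesive granule proteins. Vwf encodes von Willebrand factor, the large protein that tethers platelets to a damaged vessel wall (probe set 10541910, chromosome 6, 125552948 to 125686679). Its intensity was 324, 628 and 408 in GFP wt and 862, 1440.4 and 1419 in GFP ko, and 173, 342 and 409 in Myc wt and 364, 955 and 1279 in Myc ko. Every ko array lay above its same-numbered wt array. The difference was 2.77-fold with GFP (1.34 to 5.73, adjusted p = 0.14; 0.00281 with the block) and 2.64-fold with Myc (1.27 to 5.46, adjusted p = 0.142; 0.00313 with the block).

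Mmrn1 encodes multimerin 1, which carries coagulation factor V in platelet granules (probe set 10538706, chromosome 6, 60944317 to 60989378). Its intensity was 95.3, 329 and 197 in GFP wt and 444, 798 and 740.1 in GFP ko. With Myc it was 52.7, 92.3 and 73.1 in wt and 75.9, 177 and 139 in ko, and Myc wt 1, Myc wt 3 and Myc ko 1 were not above background. The ko to wt difference of Mmrn1 was 3.49-fold with GFP (1.75 to 6.98, adjusted p = 0.0543; 1.52e-04 with the block) and, with 1 of 3 wt and 2 of 3 ko arrays above background, 1.74-fold as measured with Myc (adjusted p = 0.492; 0.00874 with the block).

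Itga2b and Itgb3 encode the alpha IIb and beta 3 chains of the platelet fibrinogen receptor, and both genes lie on chromosome 11. Itga2b (probe set 10391697, 102453297 to 102469883) gave 543, 804 and 713 in GFP wt and 1316, 1816 and 1722 in GFP ko, and 341, 541 and 622 in Myc wt and 568, 1625 and 1872 in Myc ko. Itgb3 (probe set 10381809, 104608000 to 104670476) gave 743, 1636 and 1266 in GFP wt and 2671, 3413 and 3933 in GFP ko, and 319, 866 and 1126 in Myc wt and 997, 2415 and 3196 in Myc ko. In both genes Myc ko 2 and 3 stood above every wt array, while Myc ko 1 stood among the wt arrays. Itga2b was higher in ko 2.36-fold with GFP (1.28 to 4.37, adjusted p = 0.14; 0.00589 with the block) and 2.47-fold with Myc (1.34 to 4.56, adjusted p = 0.101; 0.00406 with the block). Itgb3 was higher 2.86-fold with GFP (1.28 to 6.36, adjusted p = 0.172; 0.00306 with the block) and 2.91-fold with Myc (1.31 to 6.48, adjusted p = 0.141; 0.00239 with the block).

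The remaining members are surface receptors. Gp9 encodes glycoprotein IX, part of the receptor complex that holds von Willebrand factor (probe set 10539818, chromosome 6, 87776131 to 87779786). Its intensity was 398, 783 and 895 in GFP wt and 1754, 1776 and 2835 in GFP ko, and 264, 559 and 846 in Myc wt and 574, 1755 and 2615 in Myc ko. Gp9 was 3.16-fold higher in ko with GFP (1.31 to 7.63, adjusted p = 0.174; 0.00291 with the block) and 2.76-fold with Myc (1.14 to 6.67, adjusted p = 0.222; 0.00469 with the block). Clec1b encodes CLEC-2, the platelet receptor for podoplanin (probe set 10542172, chromosome 6, 129397297 to 129405413). Its intensity was 60.6, 88.9 and 76.5 in GFP wt, 114, 194 and 279 in GFP ko, 55.7, 57.0 and 62.2 in Myc wt and 58.9, 78.4 and 84.3 in Myc ko. Only the 3 GFP ko arrays of Clec1b, GFP wt 2 and Myc ko 2 exceeded the background level. Where only some arrays of the dimmer group were above background, the others were raised to that level, a choice made after seeing the data. This gave a lower bound on the mean difference, which leaves out the spread between arrays, so smaller folds can lie within the error. Clec1b rose in ko with GFP 2.46-fold as measured (1.61 to 3.76, adjusted p = 0.0266, and 0.00172 with the block), with 1 of 3 wt arrays above background. Its rise was at least 2.07-fold in mean by the background bound. With Myc, 0 of 3 wt and 1 of 3 ko arrays of Clec1b were above background, and no fold is given (adjusted p = 0.745; 0.318 with the block).

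Treml1 encodes TLT-1, a receptor stored in platelet granules and moved to the surface on activation (probe set 10445789, chromosome 17, 48359916 to 48367176). Its intensity was 454, 496 and 421 in GFP wt and 961, 792 and 1231 in GFP ko, and 348, 344 and 486 in Myc wt and 439, 596 and 925 in Myc ko. Treml1 had the narrowest range of the 9 genes, 3.58-fold. It rose in ko 2.15-fold with GFP (1.45 to 3.17, adjusted p = 0.0381; 0.00546 with the block), and with Myc the difference was 1.61-fold (1.09 to 2.37, adjusted p = 0.187; 0.042 with the block). The call for Treml1 with GFP held in 4 of 12 fits that left out an array without the block, and that for Clec1b in 8 of 12. The block call for Treml1 with Myc held in 5 of 12 block fits that left out an array, with adjusted p up to 0.174.

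**Figure D2:**
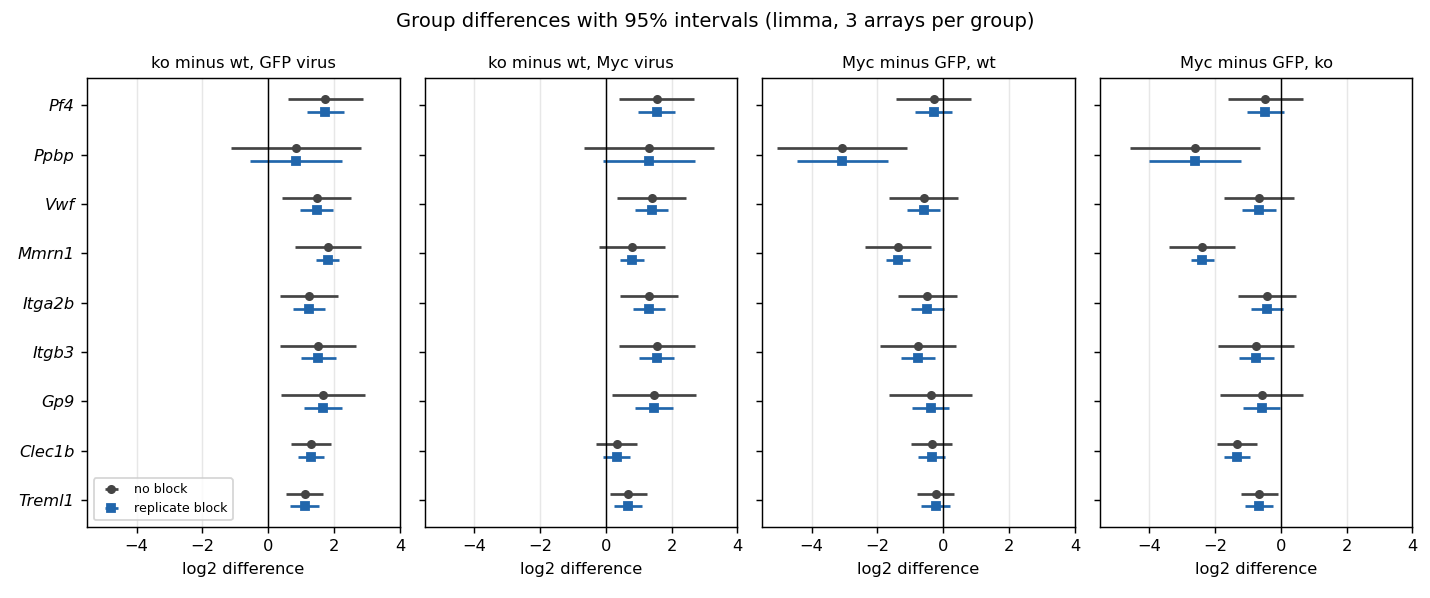
Log2 difference of each of the 9 genes in the 4 comparisons, with 95% intervals that are not adjusted over genes; grey circles are from limma without a block and blue squares are from the fit with the replicate block. The ko minus wt points lie to the right of 0 in both left panels, and Ppbp and Mmrn1 lie farthest to the left in both Myc panels; Mmrn1 and Clec1b are drawn as measured, with arrays not above background.

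With Myc, Mmrn1 and Clec1b were called lower in ko, and with the block Ppbp, Mmrn1 and Itgb3 were called lower in both genotypes. The Itgb3 calls stood near the threshold (block adjusted p = 0.0454 in wt and 0.0451 in ko) and held in 6 and 5 of 12 block fits that left out an array, with adjusted p up to 0.195 and 0.18. In wt all 9 genes had a negative log2 difference, from -0.23 in Treml1 to -3.07 in Ppbp, with a median of -0.48 against 0.00 (rounded) over all genes. Limma called 0 of 9 in wt, 2 of 9 at an unadjusted p under 0.05 (Ppbp and Mmrn1), where 3.11% of all genes were called lower and 7.57% were lower at the unadjusted level. With the block 3 were called lower, Ppbp, Mmrn1 and Itgb3, against 8.25% of all genes. Ppbp was 8.39-fold lower in wt (2.15 to 32.8, adjusted p = 0.0586; 0.00697 with the block), with log2 differences of -5.14, -2.46 and -1.60 in pairs 1, 2 and 3. Mmrn1, with 1 of 3 Myc wt arrays above background, was at least 2.11-fold lower in mean by the background bound. As measured it was 2.59-fold lower (1.29 to 5.17, adjusted p = 0.0941, and 6.6e-04 with the block). These were the 2 of 9 genes in which every Myc wt array lay below every GFP wt array, as 9.44% of all genes did. Of the other 7 genes, Pf4, Treml1 and Vwf were lower with Myc in pairs 1 and 2 and not in pair 3.

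In ko all 9 log2 differences with Myc were also negative, from -0.42 in Itga2b to -2.60 in Ppbp, with a median of -0.66 against 0.01 over all genes. In Ppbp, Mmrn1 and Clec1b, 3 of 9, every Myc array lay below every GFP array, as in 9.88% of all genes. Limma called Mmrn1 and Clec1b lower, 2 of 9, where 4.59% of all genes were called lower. With the block it called 5 of 9, Ppbp, Mmrn1, Itgb3, Clec1b and Treml1, against 10.4% of all genes. Mmrn1, with 2 of 3 Myc ko arrays above background, was at least 5.01-fold lower in mean by the background bound. As measured it was 5.21-fold lower (2.60 to 10.4, adjusted p = 0.00716, and 6.78e-05 with the block). Clec1b, with 1 of 3 Myc ko arrays above background, was at least 2.21-fold lower in mean by the background bound. As measured it was 2.51-fold lower (1.64 to 3.84, adjusted p = 0.0109, and 7.79e-04 with the block). Both calls held without each of the 12 arrays in turn, with adjusted p up to 0.0275 for Mmrn1 and 0.0375 for Clec1b. Ppbp was 6.07-fold lower (1.55 to 23.8, adjusted p = 0.0859; 0.0124 with the block), at log2 differences of -3.47, -2.06 and -2.28 in pairs 1, 2 and 3. With the block the Ppbp call held in 10 of 12 fits that left out an array, and was lost without GFP ko 1 (adjusted p = 0.0562) and without Myc ko 3 (adjusted p = 0.0512), and the Treml1 call held in 8 of 12 and was lost without Myc ko 1, Myc ko 2, GFP ko 1 or GFP ko 3 (adjusted p up to 0.138). Itgb3 was 1.67-fold lower (0.75 to 3.72, adjusted p = 0.506; 0.0451 with the block) and Treml1 1.57-fold lower (1.07 to 2.32, adjusted p = 0.134; 0.0328 with the block).

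Pf4 beside its neighbour Ppbp was 1.22-fold lower with Myc in wt (0.553 to 2.7, adjusted p = 0.898; 0.537 with the block) and 1.38-fold lower in ko (0.626 to 3.06, adjusted p = 0.743; 0.239 with the block). Whether the Myc differences of Pf4 and Ppbp differ from each other was not tested. Vwf, Itga2b and Gp9 were not called with Myc in either genotype or fit, at 1.31-fold to 1.58-fold lower. Without the block, the 95% intervals of these 3 genes and of Pf4 reached from 3.61-fold lower to 1.85-fold higher. In that fit a moderate change in either direction was within the error of 3 arrays. With the block the intervals reached from 2.24-fold lower to 1.21-fold higher. There the intervals of Vwf in both genotypes and of Gp9 in ko, not adjusted over genes, held only falls.

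Each group serves in 2 of the 4 comparisons, so these are not independent of each other. Limma's interaction term called 0 of 9 genes and 0 of 19938 genes (0%), and with the block 0 of 9 and 1 of 19938 (0.00502%). At an unadjusted p under 0.05 it took 343 genes, 1.72%, and among the 9 only Clec1b. The log2 interaction of Clec1b was -0.97 ± 0.39 (SE, adjusted p = 1; 0.831 with the block), and that of Mmrn1 was -1.01 ± 0.64 (adjusted p = 1; 0.649 with the block). Both were negative in 3 of 3 numbers. Both sizes rest in part on arrays not above background: 5 of 6 Myc arrays and 2 of 3 GFP wt arrays for Clec1b, and 2 of 3 Myc wt arrays and 1 of 3 Myc ko arrays for Mmrn1. The log2 interactions of the other 7 genes lay between -0.42 and 0.47, and 6 of them changed sign under some alternative.

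Replicate number moved with the level of these genes. In GFP wt, GFP ko and Myc wt, 8 of the 9 genes were lowest on the array numbered 1, and in Myc ko 9 of 9. The exceptions were Treml1 in each of those 3 groups. With all 4 arrays numbered 1 left out, limma called 5 of 9 genes higher in ko with GFP, 4 with Myc, 2 lower with Myc in wt and 3 in ko, each without a block. Of all genes, the same fits called 0.401%, 0.918%, 0.411% and 1.13%. With the arrays numbered 2 left out the counts were 0, 0, 0 and 1, against 0.562%, 0.637%, 3.32% and 5.04% of all genes. With those numbered 3 left out they were 0, 0, 0 and 0, against 0.0702%, 0.11%, 0% and 0.176%. The numbers appear in the labels without a stated meaning, and their part in the result beyond the block was not tested.

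**Figure D3:**
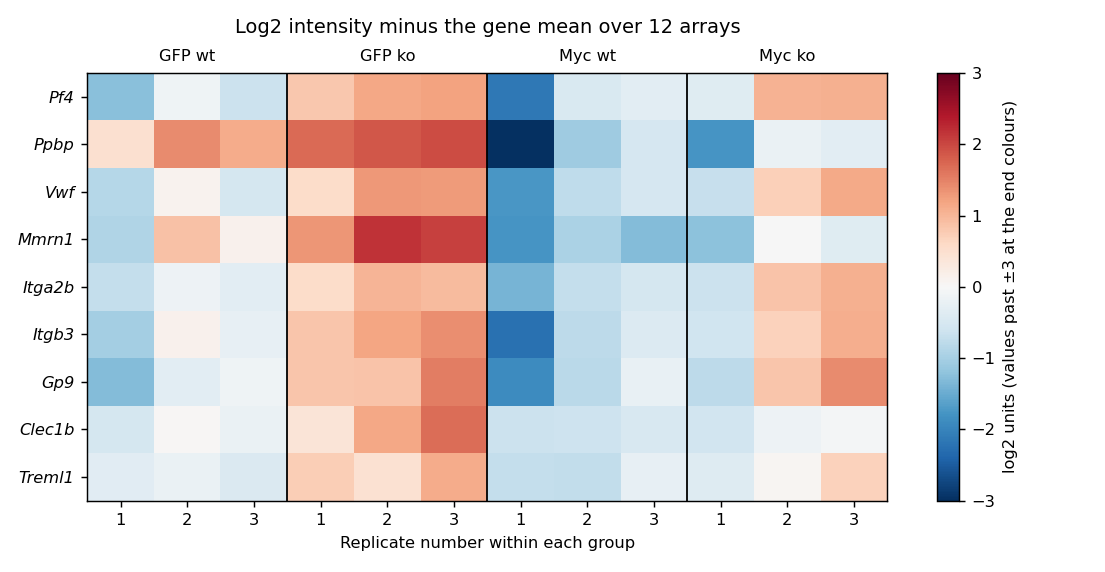
Log2 intensity of each of the 9 genes minus its mean over the 12 arrays, by group and replicate number; red is above and blue below the mean, and Ppbp on Myc wt 1 is past the end of the colour scale. The lowest value of a group is in the column of replicate number 1 for 8 of 9 genes in GFP wt, GFP ko and Myc wt and for 9 of 9 in Myc ko.

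The order of the group means was GFP ko, Myc ko, GFP wt and Myc wt in Pf4, Vwf, Itga2b, Itgb3, Gp9 and Treml1. In each of these genes Myc ko 1 lay within the range of the GFP wt arrays, and Myc ko against GFP wt was not tested. In Ppbp, Mmrn1 and Clec1b GFP wt stood above Myc ko. For Clec1b the mean intensities were 75.3 in GFP wt and 73.9 in Myc ko. With 1 of 3 arrays of each group above background, the order of these means was not resolved. In Pf4, Vwf, Itga2b, Itgb3 and Gp9 neither neighbours GFP ko and Myc ko nor neighbours GFP wt and Myc wt differed past the threshold without the block, and with it the exceptions were Itgb3 in both genotypes.

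Other genes of platelets were read from lists of 18 receptor and adhesion genes, 17 granule and secreted genes and 31 cytoskeleton, trafficking and signalling genes that could be measured. The shares of all genes called higher in ko, against which these counts and those of the transcription factors stand, were 1.17% with GFP and 1.74% with Myc, and with the block 5.12% and 6.05%. Among the receptors, 2 of 18 were called higher in ko with GFP and 0 lower, and with the block 12 and 0, with a median log2 difference of 0.62. F11r, a junctional adhesion molecule of platelets, rose 2.74-fold (adjusted p = 0.0102) and Cd84, a self-binding SLAM family receptor, 1.46-fold (adjusted p = 0.0341). With Myc they rose 3.16-fold and 1.45-fold (adjusted p = 0.00452 and 0.03), again 2 of 18 and 0 lower, and 12 and 0 with the block. Gp5, the glycoprotein V partner of Gp9, was 2.63-fold higher with GFP (adjusted p = 0.0521; 0.00125 with the block) and 2.21-fold with Myc (adjusted p = 0.0966; 0.00298 with the block). Among granule and secreted genes 0 of 17 were called with either virus, and with the block 6 were higher with GFP and 7 with Myc and 0 lower.

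Among cytoskeleton, trafficking and signalling genes 3 of 31 were higher in ko with GFP and 0 lower, and with the block 12 and 1. The 3 were Fyb, an adaptor in integrin activation, at 2.18-fold (adjusted p = 0.00519), Mrvi1, which relays cyclic GMP to calcium release, at 1.68-fold (adjusted p = 0.0465), and the membrane coat gene Cavin2 at 1.63-fold (adjusted p = 0.0249). With Myc 1 of 31 was higher, the cyclic GMP phosphodiesterase Pde5a at 3.67-fold (adjusted p = 0.0411), and 1 lower, the calcium sensor Stim1 at 1.42-fold (adjusted p = 0.0201); with the block 9 were higher and 2 lower. Tubb1, the beta tubulin of platelets, was 2.72-fold higher with GFP (adjusted p = 0.144; 0.00803 with the block). With Myc it was not called in either fit, at mean intensities of 379 in ko and 200 in wt. Myc ko 1 and 2, at 214 and 240, lay within the Myc wt range of 156 to 254.

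With Myc, the shares of all genes called lower were 3.11% in wt and 4.59% in ko, and with the block 8.25% and 10.4%. In wt 5 of 31 cytoskeleton, trafficking and signalling genes fell and 0 rose, among them Flna, which encodes filamin A and ties receptors to actin, at 1.42-fold (adjusted p = 0.00538), and the talin gene Tln1 at 1.34-fold (adjusted p = 0.00812). In ko 9 of 31 fell and 0 rose, Cavin2 at 1.92-fold (adjusted p = 0.00318) and Myh9, the non-muscle myosin of platelets, at 1.36-fold (adjusted p = 0.00116) among them. With the block 11 fell and 2 rose in wt and 17 fell and 1 rose in ko. Of the receptors 1 of 18 fell in wt, Cd84 at 1.94-fold (adjusted p = 0.00229). In ko 3 fell and 1 rose, with Cd226 at 2.42-fold (adjusted p = 0.0121) and the collagen receptor chain Itga2 at 1.95-fold (adjusted p = 0.0288) lower and Ptger3 at 1.67-fold (adjusted p = 0.0391) higher. With the block 6 receptors fell and 1 rose in wt and 7 fell and 1 rose in ko. Of the granule and secreted genes 0 of 17 were called in wt and 3 fell in ko, F5, which encodes coagulation factor V, at 2.09-fold (adjusted p = 0.0155), Angpt1 and Srgn; with the block 3 fell in wt and 8 in ko.

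Among 21 transcription factors of the lineage, Gfi1b, a repressor needed for platelets, rose in ko 2.07-fold with GFP (adjusted p = 0.0264) and 2.15-fold with Myc (adjusted p = 0.0174). Mef2c rose 1.84-fold and 1.96-fold (adjusted p = 0.0291 and 0.0155). With Myc the GATA1 partner Zfpm1 (2.88-fold, adjusted p = 0.0184) and Meis1 (3.31-fold, adjusted p = 0.00659) also rose and Gata2 fell 2.63-fold (adjusted p = 0.0252). That made 2 higher and 0 lower with GFP, 5 and 2 with the block, and 4 and 1 with Myc, 6 and 3 with the block. The genes lower with the block were Ets1 and Srf with either virus and Gata2 with Myc. The median log2 difference of the 21 genes was -0.03 with GFP and -0.01 with Myc. Gata1 was 1.98-fold higher in ko with GFP (adjusted p = 0.217; 0.0179 with the block) and 2.17-fold with Myc (adjusted p = 0.131; 0.00859 with the block). With Myc in wt 1 of 21 rose and 0 fell, and in ko 2 rose and 3 fell; with the block these were 2 and 4 in wt and 4 and 6 in ko.

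Markers of other cell types were read beside these results, since they moved between the same groups. Besides the shares given above, 2.94% of all genes were called lower in ko with GFP and 3.72% with Myc. With the block these were 7.12% and 8.03%. With Myc, 6.17% of all genes were called higher in wt and 8.58% in ko, and with the block 12.2% and 14.5%. These shares also stand for the platelet and transcription factor lists. Of 18 endothelial markers, 6 (Cdh5, Emcn, Flt4, Ptprb, Lyve1 and Ramp2) were at or below the background level on every array. With GFP 1 was higher in ko, Flt1, and the summed intensity of the list was 3703 to 4153 in GFP ko and 3210.5 to 3456 in GFP wt. This sum and those below add linear intensities, so the brightest genes of a list weigh most. Flt1 alone had a mean of 411 in GFP wt and 833 in GFP ko. With Myc 2 endothelial markers were higher, Tek and Flt1, at sums of 2652 to 3003 in ko and 2448 to 2824 in wt. Of 17 mast cell and basophil markers 3 were lower in ko with GFP and 4 with Myc, and 0 higher. Their sum was 24970.5 to 31440.3 in GFP wt, 15542 to 20299 in GFP ko, 10801 to 23502 in Myc wt and 5960.3 to 9425 in Myc ko, with 0 of 17 at or below background on every array. With Myc against GFP, 7 of these 17 fell and 1 rose in wt and 8 fell in ko. With the block 9 fell and 1 rose in wt and 10 fell in ko. In ko against wt the block fit called 6 lower with GFP and 5 with Myc, and 0 higher. Of the 18 endothelial markers Tie1, Flt1 and Pecam1 fell in both genotypes and 0 rose. With the block the same 3 fell, Egfl7 rose in wt, and Tek and Egfl7 rose in ko. The median log2 difference of the endothelial list with Myc was -0.01 in wt and -0.06 in ko.

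Erythroid markers share a precursor with megakaryocytes. Of 11 measured, 0 were called in ko with GFP and 5 were higher in ko with Myc (7 with the block), with sums of 5328 to 7080.0 in GFP wt, 6508 to 8012 in GFP ko, 6265 to 8177 in Myc wt and 10903 to 17034 in Myc ko. With Myc against GFP, 1 of 11 rose in wt and 7 in ko, where 6.17% and 8.58% of all genes were called higher. With the block 2 rose in wt and 8 in ko, against 12.2% and 14.5% of all genes. Of 14 stem and early progenitor markers 0 rose and 1 fell in ko with each virus, Hoxa9; with the block 5 rose with GFP and 3 with Myc, and 1 fell with each. Their sum was 5352 to 5653 in GFP wt, 5957 to 7551 in GFP ko, 4421 to 5259 in Myc wt and 4382 to 5558 in Myc ko. Of 16 neutrophil markers 1 rose in ko with GFP, and 1 rose and 1 fell in ko with Myc; 6 fell with Myc in wt and 9 in ko, and their sum was 116234 to 141921 in GFP wt and 80417 to 90399 in Myc wt, and 110898 to 137729 in GFP ko and 83794 to 84275 in Myc ko. With the block 13 of the 16 neutrophil markers fell with Myc in wt and 15 in ko. In ko against wt 2 of them rose with GFP, and 2 rose and 2 fell with Myc. Of 14 monocyte and macrophage markers 1 fell with Myc in wt and 0 were called in the other 3 comparisons. With the block 4 of the 14 fell with Myc in wt and 5 in ko. In ko against wt 2 of them rose and 1 fell with GFP, and 2 rose and 0 fell with Myc. Their sum was 17450.4 to 23005 in GFP wt, 21561 to 26002.5 in GFP ko, 9539.7 to 17791 in Myc wt and 13233 to 21269 in Myc ko. The part of these other cell types in the results for the 9 genes was not tested.

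**Figure D4:**
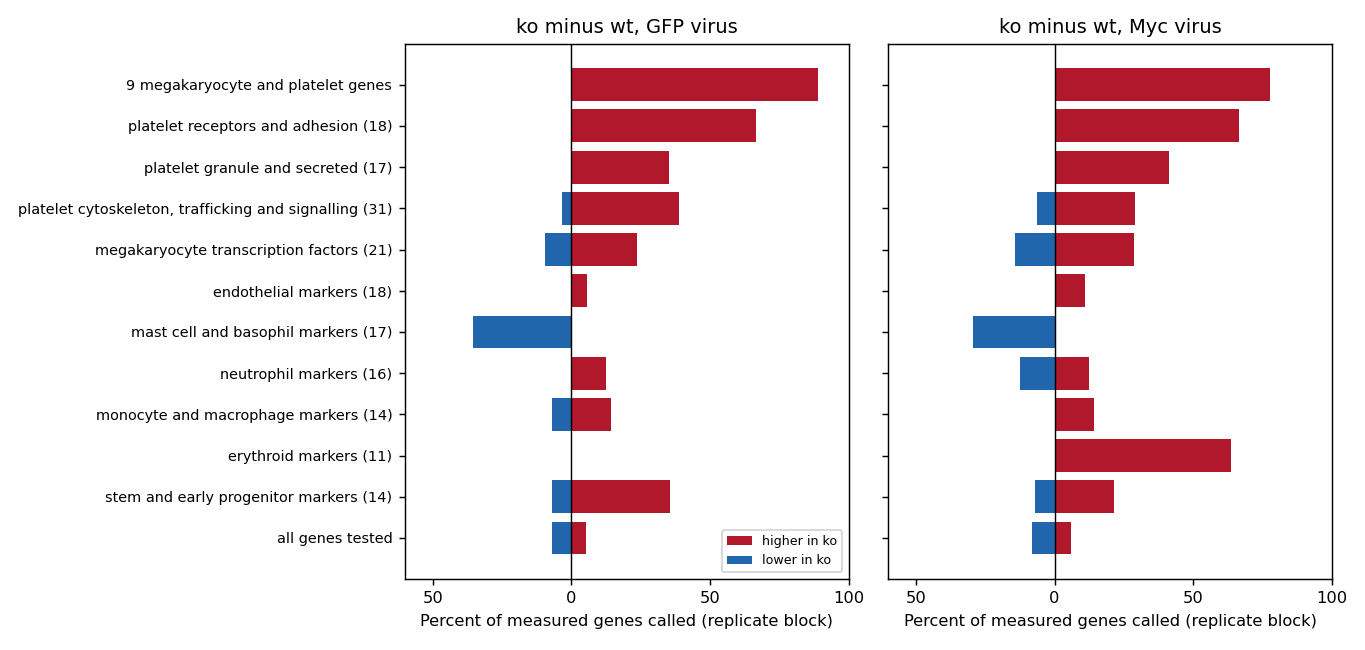
Percent of the measured genes of each list that limma with the replicate block called higher (red, right) or lower (blue, left) in ko than in wt, with the GFP virus and with the Myc virus; list sizes are in brackets. The 9 megakaryocyte and platelet genes reach 8 of 9 and 7 of 9, while all genes stand at 5.12% and 6.05% higher.

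The genes outside the 9 whose log2 intensity followed each of them most closely over the 12 arrays were sought among 17074 genes by Pearson r, as a description in which group, replicate number and array are shared. Prkcq, which encodes protein kinase C theta, was nearest to Pf4 (r = 0.97) and Gp9 (r = 0.96) and second to Itga2b (r = 0.98). Gp5 was nearest to Vwf (r = 0.98) and Itgb3 (r = 0.97), and F2rl2, the thrombin receptor PAR3, was second to Pf4 (r = 0.97) and Itgb3 (r = 0.97). Tnik was nearest to Itga2b (r = 0.99) and second to Vwf (r = 0.98). Mmrn1 was followed by Mrvi1 and Flt1 (r = 0.97 each), Clec1b by Col18a1 (r = 0.98) and Casp12 (r = 0.97), Treml1 by Kcnj5 (r = 0.97) and Tmem150a (r = 0.96), and the second gene after Gp9 was Pde10a (r = 0.96). Ppbp stood with other genes, Phf19 (r = 0.95) and Camp (r = 0.94), whose log2 differences between ko and wt with GFP were 0.10 and 0.00 (rounded).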

How the data were processed

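Per the submitters' processing notes the authors used RMA, which corrects background, equalizes quantiles between arrays and summarizes probes; each deposited value is 1 array's intensity for a probe set. The sources used here do not give the software or build. Values are linear, not log2 as the plan allowed for, so log2 was taken with no pseudocount. Of 35556 probe sets 21789 carry 1 gene symbol, 1621 have several, and 12146 are absent from the annotation used. The brightest probe set per gene gave 19938 genes, with no filter on dim ones. Array medians were 127 to 137.

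Groups came from the sample titles. R 4.3.3 with limma 3.58.1 (lmFit, eBayes) fitted 4 group means over 12 arrays (8 residual degrees of freedom, 6 with the block), and calls are Benjamini-Hochberg adjusted p under 0.05 over all genes. The fit without the block was tested on simulated data with independent noise on each array. Those data did not hold the pairing described next, and the fit with the block was not simulated. Same-numbered arrays of different groups had deviations that correlated at 0.40 to 0.85 (18 pairs), so replicate numbers were read as pairing the arrays, from the data and not the labels. No pair of arrays was identical. Nothing says the replicates were separate animals or cultures, so p-values measure the spread between these arrays, which may be technical. The number of arrays limits the precision.

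The 9 genes and the lists were chosen with earlier results of these data known. Named besides the 9 are Zfx and Myc, up to 4 called genes per list and comparison, and the 2 nearest genes of each of the 9. Outside that rule, Gata2 is named beyond the 4 of its comparison, and Egfl7, Ets1 and Srf were called only with the block. The endothelial genes at background are also named. Tubb1 and Gata1 were added after their values were seen. Predicted, small RNA and olfactory genes were passed over. Alternatives were a block for replicate number, another round of quantile normalization, median centring, a trended robust prior, array weights, only the groups compared, 2 filters on dim genes, all probe sets, the mean of a gene's probe sets, a 2-fold minimum, and leaving out each array; leaving out a whole replicate number, or an array with the block, and the bounds for arrays not above background were added after seeing the data.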

Additional observations from a re-analysis of the deposited data

How the results depend on the processing

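Without the block, limma called 0 of the 9 genes for Myc in wt, 2 for Myc in ko, 2 for ko against wt with GFP, 0 with Myc and 0 in the interaction. With the replicate block the counts were 3, 5, 8, 7 and 0, and with the block and each array left out in turn they ranged over 2 to 4, 2 to 6, 8 to 8, 6 to 7 and 0 to 0. Leaving out each array without the block gave 0 to 1, 2 to 3, 0 to 4, 0 to 3 and 0 to 0. Leaving out the 4 arrays of a number gave 0 to 2, 0 to 3, 0 to 5, 0 to 4 and 0 to 0. For ko against wt with GFP, the count was 1 with arrays centred on their medians, 5 with array weights and 0 with all probe sets. For Myc in wt it was 1 with array weights, 1 with genes above the median of all probe sets and 1 with genes above the olfactory level. For Myc in ko it was 1 with genes above the median, a filter that left out Clec1b, so that 8 of the 9 genes were tested. The cause was not tested where none is given.

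No log2 difference between ko and wt of the 9 genes changed sign under any alternative run. Over fits that left out 1 array, with or without the block, the Myc difference in wt ranged from -0.62 to 0.30 in Pf4 and from -0.77 to 0.073 in Gp9. In ko it ranged from -0.71 to 0.0035 in Pf4, from -0.74 to 0.12 in Itga2b and from -1.04 to 0.052 in Gp9, with the positive values without Myc ko 1. Without the arrays numbered 1 the Pf4 difference in wt was 0.0083. The interaction ranged from -0.83 to 1.26 in Ppbp, -0.26 to 0.60 in Itga2b, -0.51 to 0.52 in Itgb3, -0.77 to 0.29 in Pf4, -0.44 to 0.46 in Vwf and -0.66 to 0.44 in Gp9. With array weights it was -0.063 in Itga2b and -0.20 in Itgb3. It was -0.13 in Ppbp, 0.065 in Vwf and 0.22 in Gp9 without number 1, -0.11 in Itga2b and -0.17 in Itgb3 without number 2, and -0.065 in Itga2b without number 3. None of these sign changes was of a called value.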
